A study of Mus musculus with 25 samples.

Results

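The genes described here are 10 cytokines and receptors of the tumour necrosis factor (TNF) superfamily, measured by RNA sequencing in the distal colon of mice. They were chosen by name, and their identifiers were looked up among the 49452 genes of the deposited expression table. They are the ligands Tnf, Lta, Ltb, Tnfsf10, Tnfsf13b and Tnfsf15 and the receptors Tnfrsf1a, Tnfrsf1b, Tnfrsf8 and Tnfrsf25. All 10 were found, and 9 passed the filter on low values (at least 0.2 FPKM in at least 5 libraries), as did 19266 genes in all. The unit FPKM counts sequenced fragments per length of transcript, corrected for library size. Tnfsf15 did not pass the filter.

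The series holds 25 libraries from C57BL/6 mice aged 6 weeks, with 5 mice for each of 5 genotypes. Nemofl/fl mice carry the floxed gene Ikbkg, which encodes NEMO, a regulatory protein of the IκB kinase complex. In NEMOIEC-KO mice NEMO is missing from intestinal epithelial cells, and the labels do not name the Cre driver. The other 3 genotypes are NEMOIEC-KO mice that also carry Il12b-/- (the p40 chain of both IL-12 and IL-23), Il12a-/- (the p35 subunit of IL-12) or Il23a-/- (the p19 subunit of IL-23). These double mutants therefore share the NEMO deletion with NEMOIEC-KO, and every genotype was compared with the same control libraries. Comparisons that share a group are not independent of each other.

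TNF superfamily ligands are mostly made as trimeric membrane proteins that act on the cell surface or after cleavage. Their receptors recruit TRAF adaptors to activate NF-κB and MAP kinases, and those with a death domain can also start caspase-dependent cell death. In the intestine TNF drives inflammation and can kill epithelial cells whose NF-κB pathway is impaired, while lymphotoxins organise lymphoid follicles. NEMO is needed for the canonical NF-κB response downstream of these receptors.

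Summed FPKM per library lay between 653776 and 744280, and 13529 to 14374 genes per library reached 1 FPKM. Read counts were not used here, so depth is unknown and no counting interval can be given. A relative depth, read from the most common ratio of low FPKM values between pairs of libraries, ran from 0.702 to 1.16. In the median pair only 14.3% of the low values lay within 0.05 log2 of that ratio, so it is a rough guide. Ikbkg fell from 9.08 ± 1.14 FPKM (SD, n = 5) in Nemofl/fl to 4.08 ± 1.1 in NEMOIEC-KO (log2 fold change -1.09, adjusted p = 4.07e-06 in limma) and was 3.98, 3.81 and 3.34 FPKM on average in the double mutants labelled Il12b-/-, Il12a-/- and Il23a-/-. The RNA of 2 further targeted genes went against the labels. Il12b was 0.994 ± 0.223 FPKM in the libraries labelled Il12b-/- and 0.171 ± 0.080 in NEMOIEC-KO (log2 fold change 1.15, adjusted p = 1.04e-07). No Nemofl/fl, Il12a-/- or Il23a-/- library reached 0.2 FPKM of Il12b. The gene thus passed the filter only because the Il12b-/- libraries were counted, which favours a low p-value. Il12a was 1.20 ± 0.586 FPKM in those labelled Il12a-/- and 0.421 ± 0.313 in NEMOIEC-KO (0.87, adjusted p = 0.0228). Il23a was 0.214 ± 0.043 FPKM in those labelled Il23a-/- and 0.311 ± 0.308 in NEMOIEC-KO. Whole-gene FPKM do not show which exons a mutant allele lacks, so each direction below is given for the libraries as labelled. All 10 colon epithelium markers were present in each group, with summed levels of 7470 to 10424 FPKM per library. Single markers differed more than the sum. In NEMOIEC-KO against Nemofl/fl 8 of them had an unadjusted p under 0.05 in limma, in either direction. The counts for Il12b-/-, Il12a-/- and Il23a-/- against NEMOIEC-KO were 7, 4 and 0. By sex-linked RNA, 0 of 5 Nemofl/fl, 1 NEMOIEC-KO, 2 Il12b-/-, 2 Il12a-/- and 4 Il23a-/- mice were female. The file's column names also carry a library code of unstated meaning: K002000081 on all Nemofl/fl and 3 NEMOIEC-KO libraries, K002000079 on the other 2 NEMOIEC-KO and on the double mutants except Il23a-/- replicate 5.

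Ltb, Tnf and Lta are neighbours on chromosome 17 (GRCm38, GENCODE M21 gene models). Ltb lies at chr17:35194439-35196320 on the plus strand, Tnf at chr17:35199381-35202007 and Lta at chr17:35203165-35205351, both on the minus strand. The gaps are 3060 bases between Ltb and Tnf and 1157 bases between Tnf and Lta. Tnfrsf1b (chr4:145213463-145246870) and Tnfrsf8 (chr4:145267137-145315164), both on the minus strand, are 20266 bases apart. The other members lie alone, with Tnfsf10 at chr3:27317028-27342427, Tnfsf13b at chr8:10006467-10039072, Tnfsf15 at chr4:63727084-63745113, Tnfrsf1a at chr6:125349362-125362484 and Tnfrsf25 at chr4:152115934-152120119. The microRNA genes Mir6974 and Mir6973a overlap Lta and Ltb, and the minus-strand gene Gm44789 overlaps Tnfsf13b. The sources used here do not say whether fragments were assigned by strand, so reads of such overlapping genes may not be separable.

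The sequences upstream of these 5 neighbouring genes are shown because Tnf differed from Ltb and Lta across the genotypes. Tnfrsf1b and Tnfrsf8 are included as the other neighbours. Both of these were higher in NEMOIEC-KO than in Nemofl/fl and lower again in the libraries labelled Il12b-/- and Il12a-/-. They are RefSeq promoter windows on GRCm38.p6, written 5′ to 3′ on the gene's strand, in lower case with matches to the motifs searched in capitals. Each ends at the base before the RefSeq start, except that of Ltb, which stops at the base before the GENCODE gene start, 68 bases earlier.
Tnf, chr17:35202008-35202257, minus strand: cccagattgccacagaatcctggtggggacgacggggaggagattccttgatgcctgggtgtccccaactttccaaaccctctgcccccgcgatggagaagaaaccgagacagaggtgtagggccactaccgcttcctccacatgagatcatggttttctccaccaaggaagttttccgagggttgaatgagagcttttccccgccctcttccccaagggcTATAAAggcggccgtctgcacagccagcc
Lta, chr17:35205352-35205601, minus strand: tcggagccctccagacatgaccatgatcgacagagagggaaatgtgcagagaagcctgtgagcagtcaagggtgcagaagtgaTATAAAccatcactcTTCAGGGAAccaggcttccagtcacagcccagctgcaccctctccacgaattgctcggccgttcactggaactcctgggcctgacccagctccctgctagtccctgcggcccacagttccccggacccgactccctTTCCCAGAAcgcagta
Ltb, chr17:35194257-35194438, plus strand: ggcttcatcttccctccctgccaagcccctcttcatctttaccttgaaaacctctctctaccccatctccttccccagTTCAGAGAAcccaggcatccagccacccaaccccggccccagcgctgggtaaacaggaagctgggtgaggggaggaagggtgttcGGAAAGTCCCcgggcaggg
Tnfrsf1b, chr4:145246871-145247120, minus strand: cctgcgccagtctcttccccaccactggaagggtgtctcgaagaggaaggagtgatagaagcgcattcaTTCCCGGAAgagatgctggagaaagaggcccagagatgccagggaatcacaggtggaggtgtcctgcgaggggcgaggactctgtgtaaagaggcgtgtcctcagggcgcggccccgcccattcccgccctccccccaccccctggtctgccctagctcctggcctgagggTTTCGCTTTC
Tnfrsf8, chr4:145315165-145315414, minus strand: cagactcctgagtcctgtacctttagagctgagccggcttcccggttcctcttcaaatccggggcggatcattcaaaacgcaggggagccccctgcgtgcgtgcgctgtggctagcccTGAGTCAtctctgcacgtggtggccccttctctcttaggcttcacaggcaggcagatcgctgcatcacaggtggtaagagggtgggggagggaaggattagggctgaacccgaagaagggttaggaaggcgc

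A total of 5 motifs were searched on both strands in the 250 bases before the RefSeq start, from which positions are counted, and the last 2 of them were chosen after the windows had been seen. The κB-like motif GGGNNNTTCC matched 4.648% of 32851 promoter windows of mouse genes, and GAAANNGAAA (ISRE-like, the interferon-response form) matched 2.977%. TTCNNNGAA (GAS-like, the STAT form) matched 7.02%, and TGANTCA (AP-1-like) matched 6.749%. The core of the promoter box for TBP, TATAAA, matched 12.37%. The Ltb window held a κB-like match, GGAAAGTCCC on the complementary strand, at -87 to -78, and a GAS-like match at -172 to -164. Counted from the end of the printed Ltb stretch these lie at -19 to -10 and -104 to -96. The Tnf window held TATAAA at -29 to -24 and no match to the other 4 motifs. The Lta window held GAS-like matches at -152 to -144 and -16 to -8 and TATAAA at -167 to -162. Tnfrsf1b carried an ISRE-like match at -10 to -1 and a GAS-like match at -181 to -173, and Tnfrsf8 an AP-1-like match at -132 to -126. Among the members not printed, Tnfsf13b had an ISRE-like and an AP-1-like match in 1 of its windows, Tnfrsf1a a GAS-like match, and Tnfrsf25 a κB-like and a GAS-like match. In that Tnfsf13b window 166 of the 250 bases lie in annotated exons of the gene. Tnfsf10 and Tnfsf15 had none. A match is a description of the letters in the window and shows no binding.

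Levels per length differed widely between members. Averaged over the 25 libraries, Tnfrsf1a was the most abundant at 66.4 FPKM, followed by Tnfrsf1b (14.6), Tnfsf13b (9.31), Ltb (9.16), Tnfrsf8 (5.38), Tnfsf10 (2.15), Tnfrsf25 (1.99), Tnf (1.76), Lta (0.898) and Tnfsf15 (0.132). Tnfsf13b and Ltb differed by less than the spread over libraries, as did Tnfsf10, Tnfrsf25 and Tnf.

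**Figure D1:**
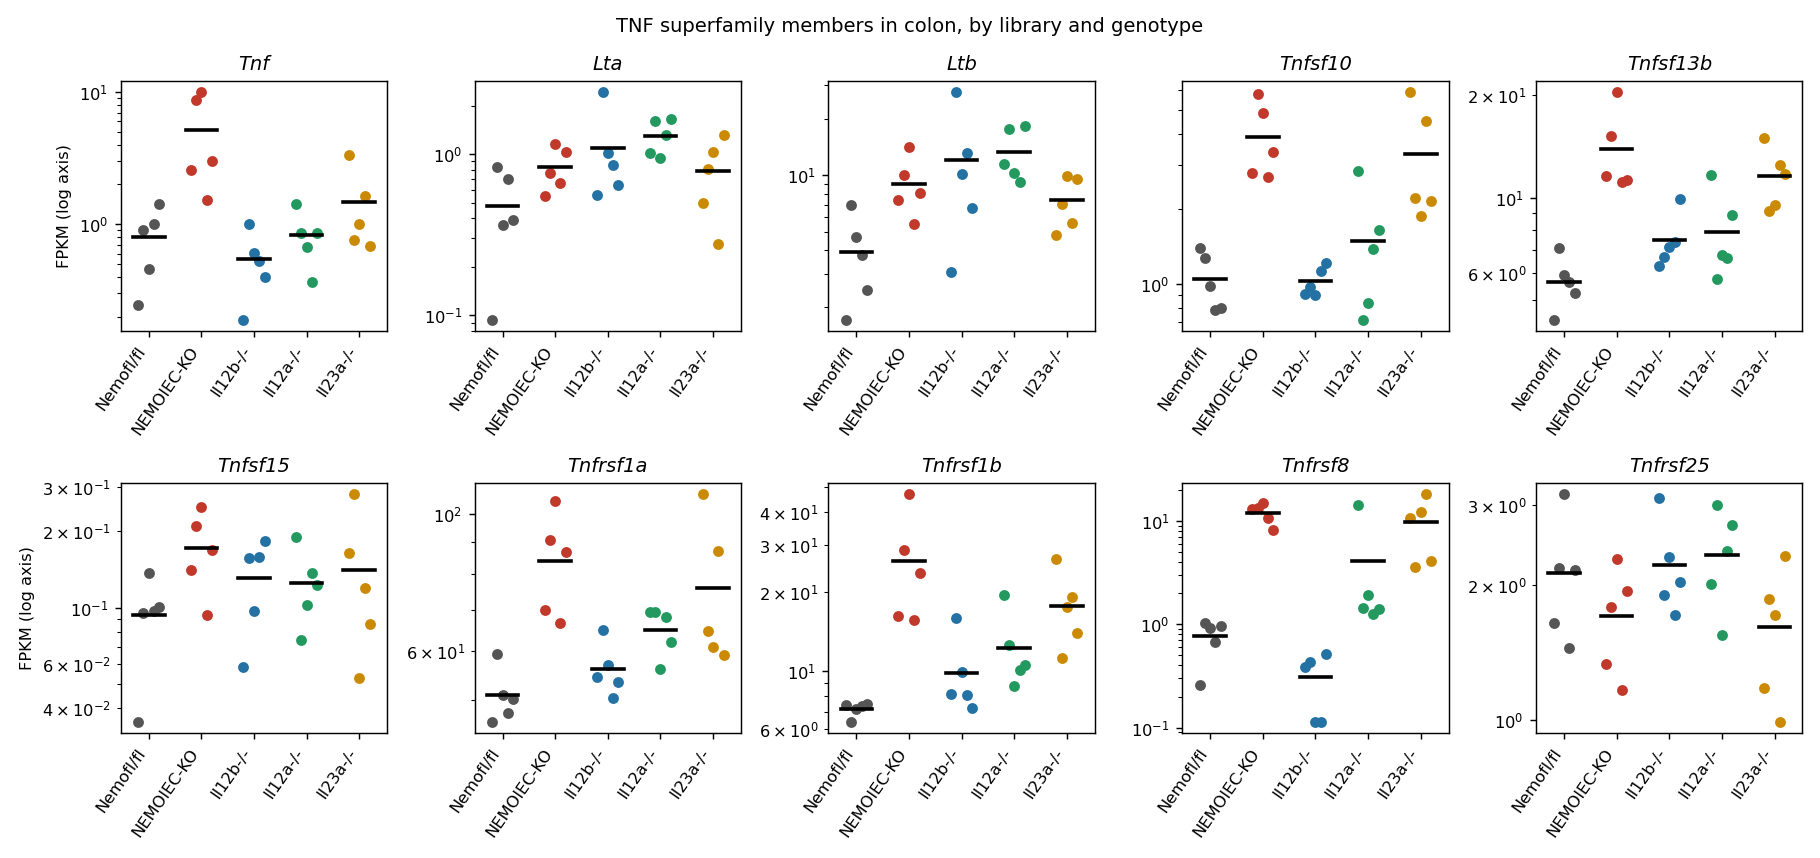
FPKM on a log axis, with a scale of its own in each panel, for the 10 members in the 25 libraries. Each point is 1 mouse, black lines are group means, and the 3 double mutants (all NEMOIEC-KO) are named by their second label. Tnf and Tnfrsf8 are high in NEMOIEC-KO (means 5.16 and 12.0 FPKM) and low in the Il12b-/- libraries (0.545 and 0.311), whereas the means of Ltb and Lta there (12.1 and 1.1 FPKM) are above those of NEMOIEC-KO (9.04 and 0.832).

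The first comparison asked which members differ when the epithelium lacks NEMO. In NEMOIEC-KO colon, 7 of the 9 tested members rose against Nemofl/fl and none fell, while 11.9% of all tested genes were called higher and 20.3% lower (2291 and 3911 genes). With median-of-ratios scaling the split over all genes was 3057 higher and 2891 lower. A gene was called when its adjusted p from limma was below 0.05. The members' median log2 fold change was 1.20, against -0.08 over all genes tested. The 7 were Tnf, Ltb, Tnfsf10, Tnfsf13b, Tnfrsf1a, Tnfrsf1b and Tnfrsf8. Lta (0.48 ± 0.26 SE, adjusted p = 0.159) and Tnfrsf25 (-0.24 ± 0.20, adjusted p = 0.366) did not pass.

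The next comparisons asked which of these differences remain when a subunit of IL-12 or IL-23 is mutated as well. Against NEMOIEC-KO, the libraries labelled Il12b-/- had 6 members lower and none higher, with 5.94% of all genes lower and 14% higher. Those labelled Il12a-/- had 5 members lower and none higher, with 4% of all genes lower and 5.61% higher. Those labelled Il23a-/- had 0 members called by limma, with 1 at an unadjusted p under 0.05 (Tnf), and 0.083% of all genes called in either direction. The members' median log2 fold changes were -0.83, -0.77 and -0.26, against 0.11, 0.07 and 0.03 over all genes. Scaling by the median of ratios moved the median over all genes for Il12b-/- against NEMOIEC-KO from 0.11 to 0.00 and changed no direction of a called member. It turned the split over all genes from 2689 higher and 1144 lower to 1230 and 1642 for Il12b-/-, and from 1080 and 771 to 583 and 1121 for Il12a-/-. The 5 members lower in the Il12a-/- libraries were all among the 6 lower in the Il12b-/- libraries. Tnfrsf1a, the sixth, had a log2 fold change of -0.35 ± 0.14 (SE, adjusted p = 0.109) in the Il12a-/- libraries. None of the 5 calls for Il12a-/- remained when only the libraries of the 2 groups were fitted, when smooth muscle markers entered as a covariate, or with the library code as a term. Calls over all genes went down as well, from 1080 higher and 771 lower to 164 and 200, 93 and 105, and 90 and 87, in the same order. With only the 2 groups fitted the fold changes were the same, such as -1.84 ± 0.44 for Tnf (adjusted p = 0.0560) and -2.04 ± 0.53 for Tnfrsf8 (adjusted p = 0.0646).

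**Figure D2:**
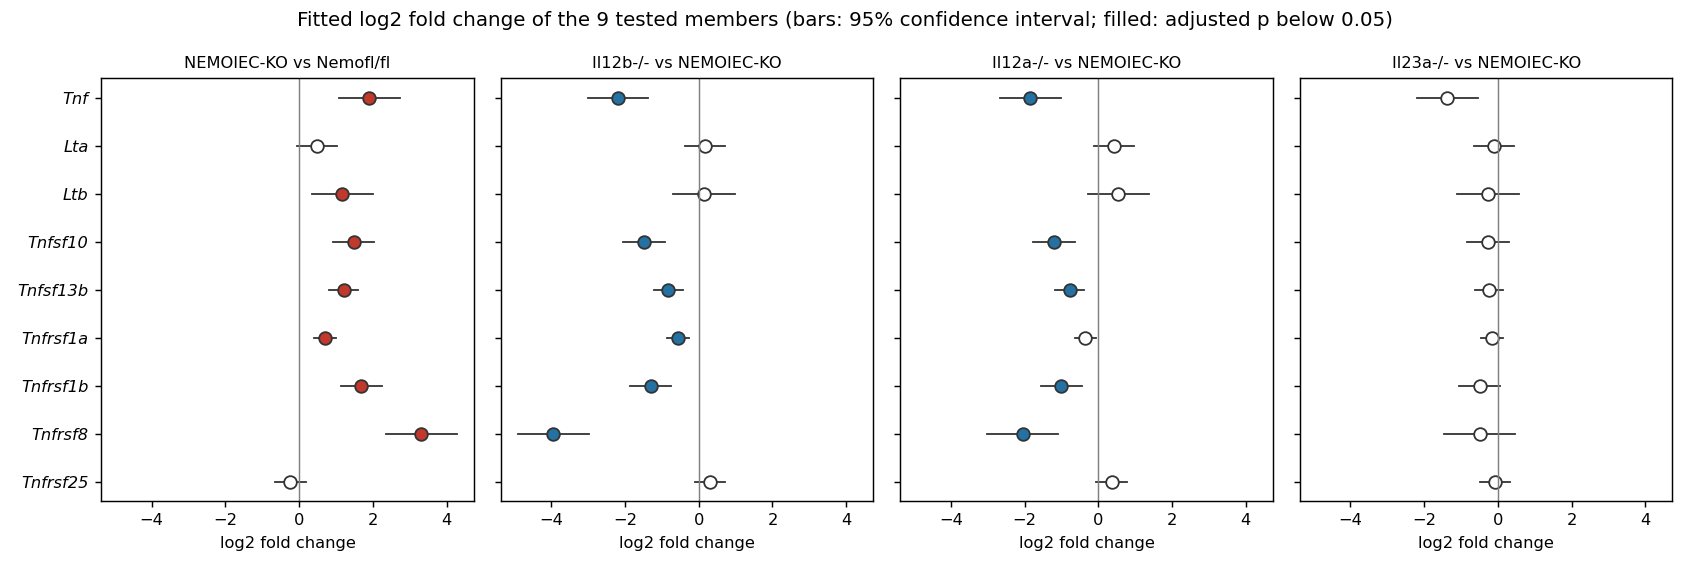
Fitted log2 fold change (x axis) of the 9 tested members (y axis) in 4 comparisons, with 95% confidence intervals as bars. Filled points passed the threshold, red for higher and blue for lower, and the number filled from left to right is 7, 6, 5 and 0.

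Tnf encodes the cytokine that gives the family its name, made mainly by macrophages and T cells. It was 0.247, 0.905, 0.456, 0.998 and 1.42 FPKM in the 5 Nemofl/fl libraries and 2.56, 8.75, 9.93, 1.53 and 3.02 FPKM in the 5 NEMOIEC-KO libraries. Every NEMOIEC-KO library lay above every Nemofl/fl library, and the means were 0.805 ± 0.463 and 5.16 ± 3.88 FPKM (SD, n = 5). The log2 fold change was 1.90 ± 0.40 (SE, adjusted p = 0.00135 in limma).

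In the libraries labelled Il12b-/-, Tnf was 0.189, 1.01, 0.602, 0.527 and 0.398 FPKM, and in those labelled Il12a-/- 1.42, 0.861, 0.667, 0.365 and 0.853 FPKM. All 10 values lay below the lowest NEMOIEC-KO library. Against NEMOIEC-KO Tnf fell by 2.19 ± 0.40 (adjusted p = 0.000697) and 1.84 ± 0.40 (adjusted p = 0.00824) on the log2 scale. In the libraries labelled Il23a-/- it was 3.32, 0.76, 0.999, 1.64 and 0.687 FPKM, which overlaps both NEMOIEC-KO and Nemofl/fl. The log2 fold change there was -1.37 (95% interval -2.19 to -0.55, adjusted p = 0.152) against NEMOIEC-KO and 0.53 (-0.29 to 1.36, adjusted p = 0.313) against Nemofl/fl. Tnf in the Il12a-/- and Il12b-/- libraries differed from Nemofl/fl by 0.06 (-0.76 to 0.88) and -0.29 (-1.11 to 0.53).

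Ltb, the membrane-bound partner chain of the lymphotoxin heterotrimer, followed another order. It was 1.71, 6.98, 4.70, 3.77 and 2.48 FPKM in Nemofl/fl and 7.45, 10.1, 14.1, 5.54 and 8.07 FPKM in NEMOIEC-KO, where 1 Nemofl/fl library reached into the NEMOIEC-KO range. The rise was 1.17 ± 0.40 on the log2 scale (adjusted p = 0.0304). This call was lost without any of Nemofl/fl replicates 1 and 5 or NEMOIEC-KO replicates 2 and 3 (log2 fold change 0.95 to 1.12, adjusted p 0.0630 to 0.0900). It was also lost without the filter on low values (adjusted p = 0.0526), with the library code as a term (0.0775) and with the smooth muscle covariate (0.126).

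Unlike Tnf, Ltb was not called lower in any double mutant. It was 3.06, 27.5, 10.1, 13.1 and 6.68 FPKM in the libraries labelled Il12b-/-, 11.4, 17.6, 10.2, 9.22 and 18.2 FPKM in those labelled Il12a-/-, and 4.84, 7.04, 9.90, 5.59 and 9.55 FPKM in those labelled Il23a-/-. Against NEMOIEC-KO the log2 fold changes were 0.14 (95% interval -0.69 to 0.98), 0.55 (-0.29 to 1.38) and -0.26 (-1.1 to 0.57). All 5 Il12a-/- libraries lay above all 5 Nemofl/fl libraries, and Ltb was there the single member called against Nemofl/fl (1.72 ± 0.40, adjusted p = 0.0376), with 0.773% of all genes called higher. Leaving out any of 7 single libraries, Nemofl/fl replicates 1, 3, 4 and 5 or Il12a-/- replicates 1, 2 and 5, ended that call (1.50 to 1.81, adjusted p 0.0611 to 0.101).

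Lta, the secreted lymphotoxin that pairs with Ltb, was called in no comparison of the fit of all libraries. It averaged 0.475 ± 0.293 FPKM in Nemofl/fl and 0.832 ± 0.253 FPKM in NEMOIEC-KO (SD, n = 5). The averages in the double mutants were 1.1 ± 0.758 (Il12b-/-), 1.30 ± 0.323 (Il12a-/-) and 0.786 ± 0.415 FPKM (Il23a-/-). The 5 Il12a-/- values, 1.02, 1.60, 0.943, 1.31 and 1.65 FPKM, all exceeded the highest Nemofl/fl value of 0.832, with a log2 fold change of 0.92 ± 0.26 (adjusted p = 0.0701). That difference passed under 3 alternatives: quantile normalization (adjusted p = 0.0481), only the 2 groups fitted (0.0424) and the replicate block (0.0383). Although Lta lies 1157 bases from Tnf, it was not called lower where Tnf fell. The log2 fold changes of Lta against NEMOIEC-KO were 0.18 (95% interval -0.36 to 0.72) in the Il12b-/- and 0.44 (-0.10 to 0.98) in the Il12a-/- libraries. Without Il12b-/- replicate 2 the Il12b-/- differences of Ltb and Lta turned to -0.23 and -0.07.

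The level of B cell markers is given beside that of Ltb and Lta. The summed level of 10 B cell markers was 29.7 FPKM on average in Nemofl/fl (range 11.0 to 56.0) and 40.5 FPKM in NEMOIEC-KO (17.9 to 54.5). Among the double mutants it was 93.4 FPKM with the label Il12b-/- (22.2 to 219.9), 96.1 with Il12a-/- (66.9 to 145.4) and 39.9 with Il23a-/- (11.6 to 80.0). Of these 10 markers, limma called 0 in NEMOIEC-KO against Nemofl/fl (0 at an unadjusted p under 0.05), and 0 in Il12b-/- against NEMOIEC-KO (4 at an unadjusted p under 0.05). In Il12a-/- against NEMOIEC-KO 1 was called higher, and 9 had an unadjusted p under 0.05. The shares of all tested genes called higher in these comparisons were 11.9%, 14% and 5.61%, in the same order. The library with the highest Ltb and Lta, Il12b-/- replicate 2 (27.5 and 2.41 FPKM), also had the highest B cell sum, and Nemofl/fl replicate 1, with the lowest Ltb and Lta (1.71 and 0.0936 FPKM), the lowest. Nemofl/fl replicate 1 had the lowest sum of T cell markers too (4.83 FPKM). Il12b-/- replicate 2 had the highest T cell sum of its group (32.8 FPKM), below that of NEMOIEC-KO replicate 3 (51.0 FPKM). No B cell marker was at 0 throughout a group, and the part of these cells in the levels of Ltb and Lta was not tested. In whole tissue, a change in the number of cells of a type and a change in RNA per cell cannot be told apart.

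**Figure D3:**
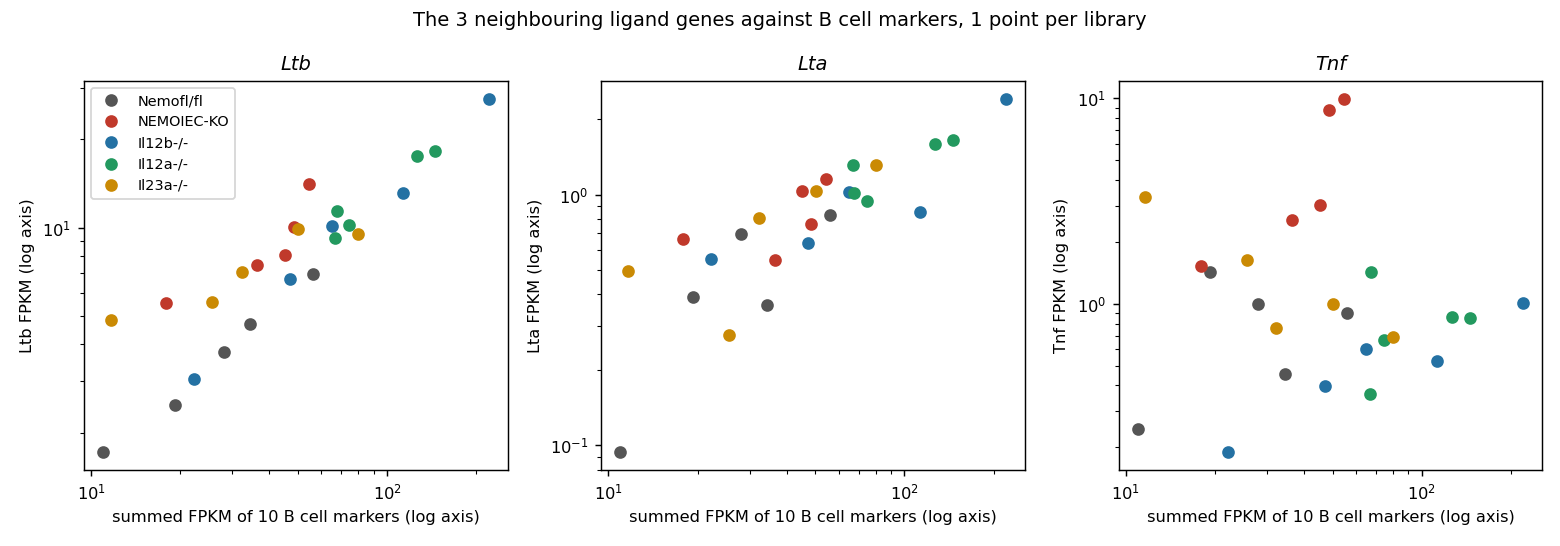
FPKM of the 3 neighbouring genes Ltb, Lta and Tnf (y axes, log) against the summed FPKM of 10 B cell markers (x axes, log), 1 point per library, coloured by genotype. Ltb and Lta are lowest at a B cell sum of 11.0 FPKM and highest at 219.9 FPKM, while the 2 highest Tnf values, 8.75 and 9.93 FPKM, lie at sums of 48.4 and 54.5 FPKM.

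Tnfsf10 encodes TRAIL, a ligand of death receptors. It was 1.40, 1.27, 0.983, 0.783 and 0.796 FPKM in Nemofl/fl and 2.78, 5.78, 4.86, 2.68 and 3.39 FPKM in NEMOIEC-KO. The groups did not overlap, and the rise was 1.47 ± 0.27 on the log2 scale (adjusted p = 0.000513). The libraries labelled Il12b-/- (0.911, 0.968, 0.897, 1.12 and 1.21 FPKM) lay within the Nemofl/fl range. Against NEMOIEC-KO Tnfsf10 fell there by 1.48 ± 0.27 (adjusted p = 0.000827), and against Nemofl/fl the log2 fold change was -0.01 (95% interval -0.57 to 0.56).

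The libraries labelled Il12a-/- had 2.83, 0.716, 0.838, 1.38 and 1.65 FPKM of Tnfsf10, with replicate 1 in the NEMOIEC-KO range. The gene fell by 1.19 ± 0.27 (adjusted p = 0.0114) against NEMOIEC-KO. In the libraries labelled Il23a-/- Tnfsf10 was 5.86, 2.21, 1.87, 4.50 and 2.15 FPKM, all above Nemofl/fl, and the rise over Nemofl/fl was 1.21 ± 0.27 (adjusted p = 0.00387).

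Tnfsf13b encodes BAFF, the survival factor of B cells. It was 5.65 ± 0.994 FPKM in Nemofl/fl and 13.9 ± 4.01 FPKM in NEMOIEC-KO (SD, n = 5), with the highest Nemofl/fl library at 7.08 and the lowest NEMOIEC-KO library at 11.1 FPKM. The rise was 1.20 ± 0.19 on the log2 scale (adjusted p = 0.000101). It fell by 0.83 ± 0.19 (adjusted p = 0.00386) in the libraries labelled Il12b-/- (6.28 to 9.90 FPKM) and by 0.77 ± 0.19 (adjusted p = 0.0147) in those labelled Il12a-/- (5.76 to 11.6 FPKM). The Il12a-/- call was lost without NEMOIEC-KO replicate 3 or Il12a-/- replicate 2 (adjusted p 0.0533 and 0.0560). The libraries labelled Il23a-/- had 9.12 to 15.0 FPKM, above all Nemofl/fl libraries. BAFF RNA and the B cell marker sum had different orders: the Il12a-/- and Il12b-/- groups had the highest mean B cell sums and lower Tnfsf13b than NEMOIEC-KO and Il23a-/-.

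Tnfsf15 encodes TL1A, the ligand of the death receptor DR3, which Tnfrsf25 encodes. Its levels were low in every group, with averages of 0.0931 ± 0.0366 FPKM in Nemofl/fl and 0.173 ± 0.0603 FPKM in NEMOIEC-KO (SD, n = 5). The double mutants averaged 0.131 ± 0.0516 (Il12b-/-), 0.125 ± 0.043 (Il12a-/-) and 0.140 ± 0.0884 FPKM (Il23a-/-). An exact two-sided permutation test over 252 splits gave p = 0.0476 for NEMOIEC-KO against Nemofl/fl, which was 0.190 after adjustment over 4 comparisons. The raw p-values of the exact test for Il12b-/-, Il12a-/- and Il23a-/- against NEMOIEC-KO were 0.262, 0.198 and 0.524.

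Tnfrsf25 stood apart among the receptors. It averaged 2.12 ± 0.672 FPKM in Nemofl/fl and 1.70 ± 0.453 FPKM in NEMOIEC-KO (SD, n = 5), and 2.21 ± 0.548 (Il12b-/-), 2.33 ± 0.574 (Il12a-/-) and 1.61 ± 0.533 FPKM (Il23a-/-) in the double mutants. No comparison called it, and every pair of groups overlapped. The log2 fold change in NEMOIEC-KO against Nemofl/fl had a 95% interval of -0.66 to 0.17. The 2 groups with the lowest means were those with the highest Tnfrsf8, NEMOIEC-KO and Il23a-/-.

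Tnfrsf1a encodes TNFR1, the death-domain receptor of TNF found on most cells, and was the most abundant member in each group. It was 46.2, 59.4, 51.0, 47.7 and 50.2 FPKM in Nemofl/fl and 69.8, 91.0, 105, 66.6 and 86.8 FPKM in NEMOIEC-KO. The groups did not overlap, and the rise of 0.70 ± 0.14 on the log2 scale (adjusted p = 0.00104) was the smallest of the 7. It fell by 0.56 ± 0.14 (adjusted p = 0.00821) in the libraries labelled Il12b-/- (50.3 to 64.9 FPKM), again without overlap with NEMOIEC-KO. The libraries labelled Il12a-/- had 56.1 to 69.5 FPKM. Those labelled Il23a-/- had 59.2 to 108 FPKM and were higher than Nemofl/fl by 0.54 ± 0.14 (adjusted p = 0.00913).

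Tnfrsf1b encodes TNFR2, the TNF receptor without a death domain, found mostly on leukocytes and endothelium. Its 5 Nemofl/fl values were nearly alike, at 7.45, 6.42, 7.14, 7.35 and 7.48 FPKM, and the NEMOIEC-KO values were 16.1, 28.7, 46.9, 15.5 and 23.6 FPKM. The rise was 1.68 ± 0.27 on the log2 scale (adjusted p = 0.00013). Tnfrsf1b thus rose more than Tnfrsf1a in fold, from a lower level (7.17 against 50.9 FPKM on average in Nemofl/fl).

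In the libraries labelled Il12b-/- Tnfrsf1b was 8.17, 15.9, 9.86, 8.11 and 7.25 FPKM, and it fell by 1.30 ± 0.27 against NEMOIEC-KO (adjusted p = 0.00194). In those labelled Il12a-/- it was 19.5, 12.5, 8.74, 10.1 and 10.5 FPKM, and the fall was 1.00 ± 0.27 (adjusted p = 0.0237). This second call was lost without NEMOIEC-KO replicate 2 or 3 or Il12a-/- replicate 2, 3, 4 or 5 (adjusted p 0.0558 to 0.0790). In those labelled Il23a-/- it was 26.5, 11.2, 17.5, 19.1 and 13.9 FPKM, above every Nemofl/fl library, with a rise of 1.19 ± 0.27 (adjusted p = 0.00384).

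Tnfrsf8 encodes CD30, a receptor of activated lymphocytes, and had the largest fold change of the tested members in NEMOIEC-KO against Nemofl/fl and in Il12b-/- and Il12a-/- against NEMOIEC-KO. It was 0.257, 1.04, 0.927, 0.671 and 0.955 FPKM in Nemofl/fl and 13.1, 13.2, 14.9, 10.6 and 8.10 FPKM in NEMOIEC-KO. The lowest NEMOIEC-KO value was thus well above the highest Nemofl/fl value, and the log2 fold change was 3.31 ± 0.47 (adjusted p = 3.59e-05). The libraries labelled Il12b-/- were at 0.384, 0.428, 0.115, 0.114 and 0.515 FPKM. Tnfrsf8 fell there by 3.95 ± 0.47 against NEMOIEC-KO (adjusted p = 9.21e-06), while against Nemofl/fl the log2 fold change was -0.63 (95% interval -1.60 to 0.33).

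The libraries labelled Il12a-/- had 14.3, 1.43, 1.91, 1.27 and 1.41 FPKM of Tnfrsf8. Replicate 1 was at the NEMOIEC-KO level and the other 4 lay between Nemofl/fl and NEMOIEC-KO without reaching either. The fall against NEMOIEC-KO was 2.04 ± 0.47 (adjusted p = 0.0109) with replicate 1 and 2.62 ± 0.34 (adjusted p = 3.53e-05) without it. The libraries labelled Il23a-/- had 10.7, 3.59, 12.3, 18.2 and 4.09 FPKM, all above Nemofl/fl, with a rise over Nemofl/fl of 2.82 ± 0.47 (adjusted p = 0.000354). Against NEMOIEC-KO the difference was -0.49 (95% interval -1.45 to 0.47, adjusted p = 0.806).

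Replicate 1 of the Il12a-/- libraries had the highest value of its group not for Tnfrsf8 alone but also for Tnf, Tnfsf10, Tnfsf13b, Tnfsf15 and Tnfrsf1b. For Ltb and Lta it was not the highest.

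Markers of other cell types also differed between the genotypes, not always in the order of the members. The counts for NEMOIEC-KO against Nemofl/fl stand beside 11.9% of all tested genes called higher and 20.3% lower. All 10 T cell markers rose in NEMOIEC-KO against Nemofl/fl, and their summed level went from 7.10 FPKM (range 4.83 to 11.5) to 29.7 (17.4 to 51.0). It was 17.0 (6.72 to 32.8), 18.7 (11.1 to 26.8) and 20.7 (13.8 to 25.3) in the Il12b-/-, Il12a-/- and Il23a-/- libraries. Monocyte and macrophage markers rose in 7 of 10 cases, with mean sums of 152 FPKM (134 to 176) in Nemofl/fl and 310 (195 to 465) in NEMOIEC-KO. The sums of the Il12b-/-, Il12a-/- and Il23a-/- libraries were 258 (186 to 355), 209 (129 to 318) and 288 (158 to 417). Neutrophil markers rose in 8 of 10 cases. Their sum without Ly6g, which was above 200 FPKM in every library, was 5.23 FPKM (1.67 to 15.7) in Nemofl/fl and 194 (15.6 to 608) in NEMOIEC-KO. In the Il12b-/-, Il12a-/- and Il23a-/- libraries it was 12.3 (1.68 to 49.6), 20.8 (2.34 to 90.4) and 156 (4.57 to 508). Smooth muscle markers moved the other way, with 5 of 8 lower in NEMOIEC-KO and a mean sum of 2961 FPKM (1547 to 4574) against 6404 (2563 to 9102) in Nemofl/fl. The sum was 5002 (1680 to 8110) with the label Il12b-/-, 6340 (1999 to 9699) with Il12a-/- and 2515 (1649 to 4959) with Il23a-/-. Against NEMOIEC-KO, limma called 0 of the 8 in each double mutant, with 0, 6 and 0 at an unadjusted p under 0.05 in the Il12b-/-, Il12a-/- and Il23a-/- libraries. In the same order, 6, 5 and 0 T cell markers had an unadjusted p under 0.05 in either direction. The counts were 2, 6 and 0 for monocyte and macrophage markers and 8, 8 and 2 for neutrophil markers. The share of all tested genes at an unadjusted p under 0.05 is not given here, so these counts cannot be read against it. No marker of these 4 lists was at 0 in a whole group, and their part in the members' differences was not tested.

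The library codes divide NEMOIEC-KO. Among libraries of the code K002000081 (3 NEMOIEC-KO and 5 Nemofl/fl), 6 members rose, all of the 7 except Ltb (1.17 ± 0.42, adjusted p = 0.0748), while 12% of all genes were called higher. Among libraries of the code K002000079, the 5 labelled Il12b-/- had 3 members lower than the 2 NEMOIEC-KO libraries, with 2.07% of all genes lower. These were Tnf (-2.40 ± 0.45, adjusted p = 0.0337), Tnfsf10 (-1.58 ± 0.24, adjusted p = 0.0228) and Tnfrsf8 (-4.11 ± 0.24, adjusted p = 0.00152). Tnfsf13b, Tnfrsf1b and Tnfrsf1a were at -0.80, -1.15 and -0.51 (adjusted p = 0.0548, 0.0846 and 0.0730). The 5 labelled Il12a-/- had no member called against the same 2 libraries, where 0.0727% of all genes were called, with Tnf at -2.04 ± 0.45 (adjusted p = 0.220) and Tnfrsf8 at -2.20 ± 0.80 (adjusted p = 0.311). No double mutant group shares a code with Nemofl/fl, so no within-code value can be had there. With the code as a term, estimated from the NEMOIEC-KO libraries, 1 member was called in Il23a-/- against Nemofl/fl (Tnfrsf8, 2.79 ± 0.83, adjusted p = 0.0434), and 0 in Il12a-/- against Nemofl/fl. Over all genes this setting called 1015 higher and 576 lower in the first comparison and 7 higher and 2 lower in the second.

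Against Nemofl/fl, 0 members were called by limma in the libraries labelled Il12b-/-, where 2 had an unadjusted p under 0.05 (Ltb and Lta) and 0.369% of all genes were called. Without Il12b-/- replicate 1, which had the lowest Ltb of its group, Ltb was called higher (1.69 ± 0.36, adjusted p = 0.0356). In the libraries labelled Il23a-/-, 5 members were higher than in Nemofl/fl (Tnfsf10, Tnfsf13b, Tnfrsf1a, Tnfrsf1b and Tnfrsf8), with 12.6% of all genes called higher. With sex as a term, 3 of these calls remained, Tnfrsf1a and Tnfrsf1b being lost. With the smooth muscle covariate 2 remained, Tnfsf13b and Tnfrsf8, and with the library code as a term 1. Over all genes the number called higher also went down, from 2420 to 534 with sex, 338 with the smooth muscle covariate and 1015 with the code.

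The double mutants were also compared with each other. The libraries labelled Il23a-/- had higher Tnfrsf8 (3.46 ± 0.47, adjusted p = 9.67e-05) and Tnfsf10 (1.21 ± 0.27, adjusted p = 0.0138) than those labelled Il12b-/-, with no overlap for either gene and 1.93% of all genes called higher. Over all genes the split was 372 higher and 613 lower, and 526 and 315 with median-of-ratios scaling. Without Il23a-/- replicate 4 the Tnfsf10 difference was 1.09 ± 0.29 (adjusted p = 0.0540). Without Il12b-/- replicate 2 or without Il23a-/- replicate 2, 4 members were called. In the fit of all libraries the remaining 7 members were not called. Among them Tnfrsf1b was 0.81 (95% interval 0.25 to 1.36, adjusted p = 0.0764) and Tnf 0.82 (0.00128 to 1.65, adjusted p = 0.193) on the log2 scale.

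Between the libraries labelled Il12a-/- and Il12b-/-, 0 members were called by limma, 1 had an unadjusted p under 0.05, and 0.41% of all genes were called. That member was Tnfrsf8, whose 5 Il12a-/- values all exceeded the 5 Il12b-/- values (1.91, 95% interval 0.94 to 2.87, adjusted p = 0.0787). Between Il23a-/- and Il12a-/-, 0 members were called, 4 had an unadjusted p under 0.05, and 1.16% of all genes were called. Without Il12a-/- replicate 1, Tnfrsf8 (2.13 ± 0.34, adjusted p = 0.000768), Tnfsf10 (1.14 ± 0.26, adjusted p = 0.00921) and Tnfsf13b (0.68 ± 0.18, adjusted p = 0.0168) were higher in the Il23a-/- libraries. Without Il23a-/- replicate 2, 1 member was called.

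The rest of the superfamily was described from lists. The shares of all tested genes to read their counts against are those given above: 11.9% higher and 20.3% lower in NEMOIEC-KO against Nemofl/fl, and, against NEMOIEC-KO, 14% higher and 5.94% lower in the Il12b-/- and 5.61% higher and 4% lower in the Il12a-/- libraries. Of 12 other ligands 8 were tested (Tnfsf4, Cd70, Tnfsf8 and Tnfsf18 were not), and 3 rose and 1 fell in NEMOIEC-KO. Tnfsf14 (LIGHT, a ligand of the lymphotoxin β receptor) rose by 0.61 (adjusted p = 0.00606) and Cd40lg (the T cell ligand of CD40) by 0.60 (adjusted p = 0.0010). Tnfsf12, the ligand TWEAK, fell by 0.71 (adjusted p = 0.0196) and was higher by 0.72 (adjusted p = 0.0275) and 0.71 (adjusted p = 0.0486) in Il12b-/- and Il12a-/- libraries than in NEMOIEC-KO. Tnfsf14 fell by 0.47 and 0.50 and Cd40lg by 0.57 and 0.52 in the same 2 comparisons (adjusted p = 0.0358, 0.0454, 0.00222 and 0.0114). Both genes were near the floor, with means of 0.398 and 0.316 FPKM in NEMOIEC-KO and 0.0775 and 0.0296 in Nemofl/fl. No Nemofl/fl, Il12b-/- or Il12a-/- library reached 0.2 FPKM for either gene. They thus passed the filter only through NEMOIEC-KO and Il23a-/- libraries, which favours these calls. Tnfsf9, the ligand of 4-1BB, fell by 0.81 in the Il12a-/- libraries (adjusted p = 0.0390).

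Of 24 other receptors 23 were tested (Edar was not), and 12 rose and 1 fell in NEMOIEC-KO. In the Il12b-/- and Il12a-/- libraries 5 and 3 fell against NEMOIEC-KO. Tnfrsf23, a decoy receptor of TRAIL in the mouse, rose by 2.30 ± 0.44 (adjusted p = 0.000707) and fell by 1.75 and 1.62 in those libraries (adjusted p = 0.00834 and 0.0252). Tnfrsf9 (4-1BB, a costimulatory receptor of T cells) rose by 1.61 ± 0.34 (adjusted p = 0.00162) and fell by 1.23 and 1.11 (adjusted p = 0.0149 and 0.0444). Tnfrsf14 (HVEM, a receptor of LIGHT) rose by 1.46 ± 0.24 (adjusted p = 0.000171) and fell by 1.12 and 1.24 (adjusted p = 0.00257 and 0.00411).

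All 26 genes that act downstream of TNF receptors were tested. In NEMOIEC-KO 9 rose and 1 fell, and in the Il12b-/- and Il12a-/- libraries 6 and 4 fell against NEMOIEC-KO. Casp8, the caspase that death receptors activate, rose by 0.95 ± 0.14 (adjusted p = 8.43e-05) and fell by 0.94 (adjusted p = 0.00015) and 0.64 (adjusted p = 0.0106). Cflar, which encodes the Casp8 inhibitor cFLIP, also rose in NEMOIEC-KO, by 0.61 (adjusted p = 7.46e-05). It fell by 0.56 (adjusted p = 0.00029) and 0.42 (adjusted p = 0.00867) in the Il12b-/- and Il12a-/- libraries. Cyld, a deubiquitinase that restrains NF-κB, rose by 0.57 in NEMOIEC-KO (adjusted p = 0.0011). It fell by 0.53 (adjusted p = 0.0030) in the Il12b-/- and by 0.46 (adjusted p = 0.0189) in the Il12a-/- libraries. Tnip1, an inhibitor of NF-κB signalling, fell by 1.00 ± 0.14 in NEMOIEC-KO (adjusted p = 3.55e-05). Map3k14, the kinase NIK of the alternative NF-κB pathway, rose by 0.62 in NEMOIEC-KO (adjusted p = 0.00072), and Tnfaip3, the NF-κB inhibitor A20, fell by 0.56 in the Il12b-/- libraries against NEMOIEC-KO (adjusted p = 0.0188).

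Of 14 genes that TNF induces in many cells 13 were tested (Sele was not), and 7 rose in NEMOIEC-KO. They included the neutrophil chemokine gene Cxcl2 (2.39 ± 0.90, adjusted p = 0.0449), the monocyte chemokine gene Ccl2 (1.91 ± 0.46, adjusted p = 0.00379) and Tnfaip2 (1.83 ± 0.36, adjusted p = 0.000828). Cxcl2 ran from 0.183 to 34.0 FPKM in NEMOIEC-KO, which overlaps the Nemofl/fl range of 0.109 to 0.396 FPKM. Against NEMOIEC-KO, 6 fell in the Il12b-/- libraries, led by Cxcl1 (-2.18 ± 0.56, adjusted p = 0.00942), Tnfaip2 (-1.34 ± 0.36, adjusted p = 0.0120) and Ccl2 (-1.33 ± 0.46, adjusted p = 0.0448). In the Il12a-/- libraries 1 was called lower, Tnfaip2 (-1.35 ± 0.36, adjusted p = 0.0229), and 6 in all had an unadjusted p under 0.05 in limma. Cxcl2 (-2.43), Cxcl1 (-1.58) and Ccl2 (-1.25) did not pass there (adjusted p = 0.0811, 0.0734 and 0.0809). Between the Il12a-/- and Il12b-/- libraries 0 of the list had an unadjusted p under 0.05. In the Il23a-/- libraries limma called 0 genes of the 4 lists against NEMOIEC-KO, with 1 ligand, 1 receptor, 8 signalling genes and 1 TNF-induced gene at an unadjusted p under 0.05.

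**Figure D4:**
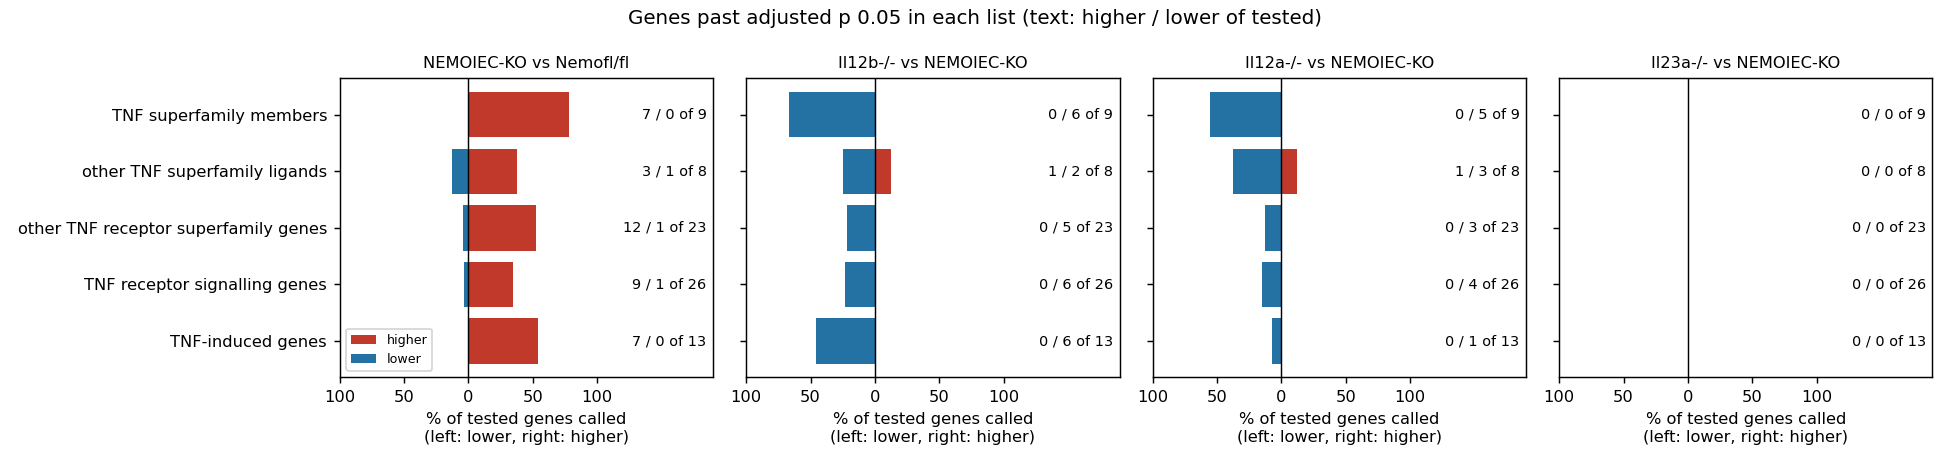
Percent of the tested genes of each list called higher (red, to the right) or lower (blue, to the left) in 4 comparisons, with the counts as higher / lower of tested beside each bar. In NEMOIEC-KO against Nemofl/fl 12 of 23 other receptors and 7 of 13 TNF-induced genes are higher, and no bar is present for Il23a-/- against NEMOIEC-KO.

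The median log2 fold changes in NEMOIEC-KO against Nemofl/fl were 0.32 for the other ligands, 0.66 for the other receptors, 0.09 for the signalling genes and 0.80 for the TNF-induced genes, beside -0.08 over all genes. In Il12b-/- against NEMOIEC-KO they were -0.16, -0.06, -0.10 and -0.89, beside 0.11 over all genes, and in Il12a-/- -0.17, -0.15, -0.13 and -0.71, beside 0.07. These counts moved with the alternatives, for example from 6 to between 0 and 8 for the TNF-induced genes in Il12b-/- and from 4 to between 0 and 9 for the signalling genes in Il12a-/- libraries.

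The genes whose ordering of the 25 libraries was most like each member's were found among 12609 genes of at least 1 FPKM on average. The measure was the mean absolute difference in a library's rank, which is 0 for the same order, and all points share libraries and genotypes. Tnf was closest to Egfr (2.24) and Prss27 (2.56). Ltb was closest to Wdfy4 (1.20) and Ptprcap (1.28), and Lta to Cd37 (2.56). Tnfsf10 was closest to Snx10 (1.60) and Dtx3l (1.68), and Tnfsf13b to Nkg7 (2.00) and Slfn5 (2.08). Tnfrsf1a was closest to Stat3 and Il4ra (1.92 each), Tnfrsf1b to Apobec3 (1.60) and Mfsd2a (1.68), and Tnfrsf8 to Trim40 (2.08) and Ly6a (2.24). Tnfrsf25 had the most distant nearest genes, Slc39a13 (3.68) and Fam20a (4.16).

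Among the members themselves, Tnfsf10 and Tnfsf13b (2.56), Tnfrsf1a and Tnfrsf1b (2.80) and Lta and Ltb (3.20) ordered the libraries most alike. Tnf and its neighbours on chromosome 17 were further apart, at 7.84 for Ltb and 8.40 for Lta.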

How the data were processed

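RNA of 25 distal colon samples (5 mice for each of 5 genotypes, grouped by the genotype in the labels) was measured by RNA sequencing. The values deposited by the authors are FPKM per gene and library. The submitters' processing notes name Cufflinks 2.1.1 and TopHat2 2.0.10, further DESeq2 1.10.1, and the build GRCm38. Their roles and the annotation release are not given in the sources used here. FPKM are not counts, so no count test was run.

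The deposited FPKM were transformed to log2(FPKM + 0.5), and a log2 fold change on this scale understates the change of low genes. The filter kept genes that reached 0.2 FPKM in 5 or more libraries. All 25 libraries entered 1 limma 3.58.1 fit (R 4.3.3, trend, empirical Bayes, 20 residual degrees of freedom). Tests were two-sided, with Benjamini-Hochberg adjustment over the 19266 genes of a comparison and a threshold of 0.05. The fit was tested on simulated data. Tnfsf15 was tested by an exact permutation test.

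The members and gene lists were chosen with earlier results of these data known. All members are named. From each other pathway list the 3 members with the largest absolute change past the threshold are named for each of the 4 main comparisons, and a gene so named may also be given in another of these comparisons. For each tested member the 2 genes with the most similar library order are named, except that 1 gene for Lta is not reported here. Alternatives were the pseudocount, the filter, the scaling, the libraries fitted, a replicate block, the library code, a smooth muscle covariate and leaving out each library. The term for sex was added after seeing the data. Symbols and positions came from GENCODE M21 and promoter windows from RefSeq (GRCm38.p6, 10 of 10 members matched).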

Additional observations from a re-analysis of the deposited data

Results flagged for a closer look

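Among 50 groups of 5 libraries (10 members in 5 genotypes), 2 held a library far from the other 4, where chance gives about 1 in 20 groups, or 2.5. Tnfrsf8 was 14.3 FPKM in replicate 1 of the libraries labelled Il12a-/-, and the next highest library had 1.91 FPKM, so the gap took 0.950 of the group's range (critical value 0.71). Lta was 2.41 FPKM in replicate 2 of the libraries labelled Il12b-/-, and the next highest had 1.02 FPKM, a gap of 0.748 of the range.

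The effect of the second mutation against NEMOIEC-KO differed between the libraries labelled Il23a-/- and those labelled Il12b-/- for 2 members. The direct test in limma gave a log2 difference of 3.46 for Tnfrsf8 (adjusted p = 9.67e-05) and 1.21 for Tnfsf10 (adjusted p = 0.0138), higher in Il23a-/- in 5 of 5 libraries for each.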

How the results depend on the processing

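The 26 member differences past the threshold were recomputed under 592 alternatives in all: 529 stayed past it in the same direction, 63 did not, and 0 reversed. 11 of the 26 stayed past it throughout. The cause of the changes below was not tested, except that fits within a code or of 2 groups use fewer libraries. Members called in NEMOIEC-KO against Nemofl/fl were 7, and 6 to 7 with 1 library left out. The count was 6 without the filter, 6 with the library code as a term, 6 within a code and 6 with the smooth muscle covariate. Ltb was the member lost in each. In Il12b-/- against NEMOIEC-KO the 6 (6 with any library left out) became 3 with the library code as a term and 3 within a code. Over all genes the number called lower there went from 1144 to 485 and 399. In Il12a-/- against NEMOIEC-KO the 5 became 0 with only the 2 groups fitted, 0 with the code as a term, 0 within a code and 0 with the smooth muscle covariate, and were 3 to 5 with 1 library left out. In Il23a-/- against NEMOIEC-KO there were 0 throughout.

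Against Nemofl/fl, Il12b-/- had 0 (0 to 1 with 1 library left out). Il12a-/- had 1, which became 0 without the filter, 2 with quantile normalization, 3 with only the 2 groups, 0 with the code, 0 with sex, and 0 to 1 with 1 library left out. Over all genes the number called higher in Il12a-/- went from 149 to 75, 210, 610, 7 and 57 under these settings, in the same order. Il23a-/- had 5, which became 1 with the code, 2 with the smooth muscle covariate and 3 with sex, and stayed 5 with any library left out. The numbers over all genes with the code, the covariate and sex are given above. Il12a-/- against Il12b-/- had 0, which became 1 at a pseudocount of 0.1 and 1 with the smooth muscle covariate, and stayed 0 with any library left out. Il23a-/- against Il12b-/- had 2, which became 4 with median-of-ratios scaling and 1 with the smooth muscle covariate, and was 1 to 4 with 1 library left out. Il23a-/- against Il12a-/- had 0, and 0 to 3 with 1 library left out. Replicate numbers did not pair the samples (median correlation of 50 same-numbered pairs 0.0071, against 0.0086 for other numbers). With the replicate block, 2 members were called in Il12a-/- and 6 in Il23a-/- against Nemofl/fl, and the other 8 counts did not change. Fits within a code could not be made for the double mutants against Nemofl/fl. Depth is unknown, which leaves members under 1 FPKM least certain.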
